A study of Mus musculus with 24 samples.

Results

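The E2F transcription factors and their DP dimerization partners were followed through 24 mouse liver libraries of RNA-seq read counts. The family was taken by gene symbol and comprised all 10 members, E2f1 to E2f8, Tfdp1 and Tfdp2, of the 24411 genes counted. All 10 were present in every count file.

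The samples were whole livers of male mice in 2 cohorts, and every mouse carried loxP-flanked alleles of E2f7 and E2f8. In the LKO cohort, knockout mice were E2f7/E2f8 loxP/loxP with Alb-Cre Tg/0 on a mixed, mainly FVB background. They also carried the Cre reporter R26R mTmG/mTmG, and control littermates were Alb-Cre 0/0. Alb-Cre is driven by the albumin promoter, acts in the liver from development onward and leaves LKO livers rich in diploid hepatocytes. In the HKO cohort, floxed mice received AAV8-TBG-Cre at 2 months of age, which deletes the genes in adult hepatocytes under the TBG promoter, and controls received AAV8-TBG-Null. The paper describes the same Cre reporter in control and HKO livers of this model. The sample labels name these groups KO, WT, CRE and NULL. At 0 h, fasted mice without acetaminophen (APAP) gave 1 library each, from 4 LKO, 4 control, 3 HKO and 3 AAV8-TBG-Null mice. At 12, 24, 48, 72 and 96 h after 300 mg/kg APAP, given at about 2.5 months of age after an overnight fast, RNA of 3 mice was pooled into 1 library per genotype of the LKO cohort.

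E2F proteins bind a shared DNA motif in the promoters of cell cycle genes. E2F1, E2F2 and E2F3 are activators that drive the genes of S phase once released from the retinoblastoma protein, E2F4 and E2F5 mainly repress together with the related pocket proteins, and E2F6 represses through Polycomb-type complexes. These 6 need a DP partner, encoded by Tfdp1 or Tfdp2, to bind DNA. E2F7 and E2F8 are atypical, since they bind without DP, repress E2F targets late in the cycle and are known in liver for promoting the polyploidization of hepatocytes.

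Reads on genes ranged from 12665686 to 19499897 per library with a median of 16500385, and 3 reads, taken as the lowest detectable level, corresponded to 0.143 to 0.254 CPM (counts scaled to a common total with TMM factors), which covers counting error only. All 7 hepatocyte markers examined, among them Alb, Apoa1 and Hnf4a, were above this level in every group, with sums from 48098 to 130867 CPM. Control mouse 3 of the LKO cohort at 0 h had the highest share of reads on no gene, 39.93% against 18.7% to 35.12% in the others, and without it no member was called between LKO and control mice at 0 h, where the E2f8 difference was 0.64 in place of 0.63 on the log2 scale. The globin genes Hba-a1, Hbb-bt and Hbb-bs were listed at 0 in all libraries. In whole liver, fewer cells of a type and less RNA per cell cannot be told apart.

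The targeted genes were examined first. Atypical E2f7 (chr10:110745439-110787384, plus strand) and E2f8 (chr7:48866429-48881596, minus strand; GRCm38, GENCODE vM21) were counted over all their exons, including those outside a deleted stretch, so these counts do not check the deletion. In the HKO cohort, E2f8 stood at 18.3, 26.4 and 14.9 CPM in the AAV8-TBG-Null mice and at 53.1, 83.8 and 30.7 CPM in the HKO mice. In the LKO cohort at 0 h, E2f8 stood at 18.8, 18.1, 16.0 and 11.8 CPM in control mice and at 21.9, 26.4, 34.1 and 17.8 CPM in LKO mice. Thus the lowest HKO mouse lay above the highest AAV8-TBG-Null mouse, whereas 1 of the 4 LKO mice lay within the control range. Counts over single exons were not analysed here. Gm2788, a gene without counts here, overlaps 3639 bp of E2f8 on the opposite strand. Any of its reads on E2f8 exons would be counted as E2f8.

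E2f7 was barely detected at 0 h. Its counts were 14, 18 and 3 reads in AAV8-TBG-Null mice and 22, 2 and 3 in HKO mice, and 2, 7, 4 and 6 in control mice and 3, 3, 4 and 4 in LKO mice. In the HKO cohort its log2 fold change was −0.43 (95% interval −2.38 to 1.53, edgeR adjusted p = 0.897), and −2.16 without HKO mouse 1, which had 22 reads (adjusted p = 0.314). A genotype difference in E2f7 was thus not detectable there at this depth, and the gene did not pass the filter on low counts in the LKO cohort at 0 h. A gene on the opposite strand, 1700020G17Rik, overlaps 2800 bp of E2f7 in GENCODE vM21. The 2 stranded counts of E2f7 summed over all libraries to the same 299 reads as the count that disregards strand, so no E2f7 read was lost to that overlap in counting.

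The stretch of 250 bases before the transcription start is shown for both atypical genes, because both are the genes targeted in these mice. The sequences come from RefSeq on GRCm38.p6, from chr10:110745189-110745438 on the plus strand for E2f7 and from chr7:48881597-48881846 on the minus strand for E2f8, and are written 5′ to 3′ with any match to the E2F letters in capitals. The letters searched on both strands were TTTCCCGC, TTTGGCGC, TTTCGCGC and TTTGCCGC.
E2f7: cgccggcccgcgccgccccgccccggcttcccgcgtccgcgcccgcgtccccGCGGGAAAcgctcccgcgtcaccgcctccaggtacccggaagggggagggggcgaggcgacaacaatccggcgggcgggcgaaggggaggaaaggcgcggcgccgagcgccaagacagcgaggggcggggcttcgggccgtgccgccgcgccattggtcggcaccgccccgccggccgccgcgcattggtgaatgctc
E2f8: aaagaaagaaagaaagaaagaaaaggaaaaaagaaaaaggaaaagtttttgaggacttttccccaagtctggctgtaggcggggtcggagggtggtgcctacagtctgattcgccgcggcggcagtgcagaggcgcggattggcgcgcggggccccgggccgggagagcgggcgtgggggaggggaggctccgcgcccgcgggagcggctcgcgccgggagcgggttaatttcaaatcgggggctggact
E2f7 held 1 match, GCGGGAAA, the reverse complement of TTTCCCGC, starting 198 bases before the start, and these letters were not in the E2f8 window. Of the 8 members with a RefSeq entry, E2f3 and Tfdp1 also held a match, at 11 and 43 bases before a start. By window, 4 of the 12 entries of members held a match, against 1.86% of all 32851 windows of the same length. The windows of E2f1 and Tfdp2 precede RefSeq starts that lie inside the gene as annotated in GENCODE vM21. The bases before the GENCODE starts of these 2 genes were thus not searched. A match describes the letters only and is not a measured binding site.

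Levels between genes were compared per length, as RPKM (CPM divided by exon length in kilobases). The canonical repressor E2f4 had the highest mean in each group at 0 h with the union of exons as length, with 12.3 ± 1.95 RPKM in control (SD, n = 4), 12.1 ± 1.27 in LKO (n = 4), 10.0 ± 0.244 in AAV8-TBG-Null (n = 3) and 10.7 ± 0.890 in HKO mice (n = 3). Tfdp1, which encodes the main DP partner, came second outside HKO, at 8.15 ± 1.46, 6.81 ± 0.924 and 8.85 ± 0.685 RPKM in control, LKO and AAV8-TBG-Null mice. E2f4 and Tfdp1 did not overlap in these 3 groups. In HKO mice E2f8 came second at 10.3 ± 4.90 RPKM, overlapping both E2f4 above it and Tfdp1 (7.27 ± 0.535) below. With the longest transcript as length, E2f8 came first in HKO mice, at 15.1 RPKM against 13.2 for E2f4, and E2f4 stayed first in the other 3 groups.

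In the middle of the order lay E2f5 and E2f6. E2f5, a canonical repressor, had 4.16 ± 0.972 RPKM in control and 3.96 ± 0.389 in LKO mice, and E2f6 had 4.22 ± 0.981 and 3.49 ± 0.547, and the ranges of these neighbours overlapped in both groups. The level of E2f8 per length was 2.97 ± 0.576 RPKM in control mice and 4.60 ± 1.28 in LKO mice, where it overlapped E2f5 and Tfdp1. E2f5 shares reads with 1810022K09Rik on the opposite strand, and its 2 stranded counts summed to 30.51% more reads than the count that disregards strand, and these extra reads cannot be assigned to either gene here. E2f3 (1.46 ± 0.281 RPKM in control), Tfdp2 (1.35 ± 0.124) and E2f1 (1.01 ± 0.202) followed, with E2f3 and Tfdp2 overlapping. With the longest transcript, Tfdp2 lay above E2f3 and E2f6 above E2f5 in all 4 groups, whereas with the union of exons E2f3 lay above Tfdp2 in all 4 and E2f6 above E2f5 in control mice alone. E2f2 (0.241 ± 0.140 RPKM) and E2f7 (0.0367 ± 0.0175) were lowest. The rank order of the lowest pair was turned in AAV8-TBG-Null mice, at 0.0398 ± 0.0126 RPKM for E2f2 and 0.0852 ± 0.0593 for E2f7, with overlap.

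Summed by class, canonical repressors held most of the E2F level at 0 h with the union of exons as length. Their share of the summed E2F RPKM was 78.1% ± 3.71 in control, 71.4% ± 2.69 in LKO, 72.2% ± 3.69 in AAV8-TBG-Null and 58.9% ± 7.66 in HKO mice. The atypical share was 11.5% ± 2.58, 16.9% ± 4.39, 16.1% ± 4.67 and 32.5% ± 10.1 in the same order, nearly all of it E2f8. In LKO and HKO mice this share counts the whole targeted genes and cannot tell intact from deleted transcript. The activator share was 10.4% ± 1.25, 11.8% ± 2.52, 11.7% ± 1.49 and 8.57% ± 2.46.

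**Figure D1:**
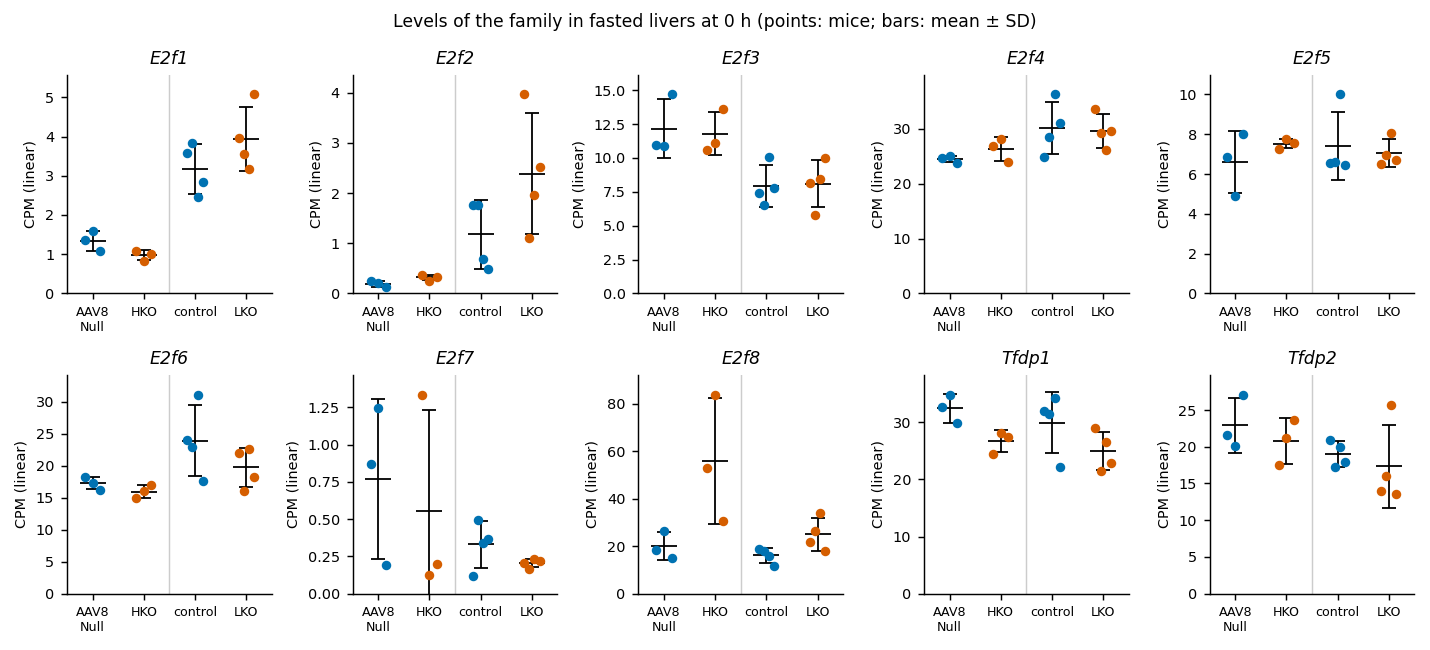
Levels of the 10 family members at 0 h in CPM on linear axes starting at 0, 1 point per mouse (blue, controls; orange, knockouts), with mean ± SD bars, which are cut at 0 for E2f7. The 3 HKO mice have E2f8 at 30.7 to 83.8 CPM, above the 14.9 to 26.4 CPM of AAV8-TBG-Null mice, while the other members overlap between knockout and control except E2f2 and Tfdp1 in the HKO cohort.

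The first comparison asked whether deletion in adult hepatocytes changed the rest of the family. No member was called, where a call needs an adjusted p-value under 0.05 in edgeR's quasi-likelihood test and a change of at least 1.5-fold, and 0.960% of the 12397 genes tested were called. Of the 10 members 9 passed the filter, and E2f2 did not. E2f8 had a log2 fold change of 1.5 (SE 0.33, 2.82-fold, n = 3 per group, edgeR adjusted p = 0.0773). E2f8 was called without HKO mouse 3, the lowest of its group (log2 fold change 1.79, edgeR adjusted p = 0.0163), and by DESeq2 (adjusted p = 0.0413), which called 327 genes in place of 119. Without HKO mouse 2, the highest, it was 1.08 (edgeR adjusted p = 0.199). A replicate block (1.43, edgeR adjusted p = 0.00181) and no filter beyond 1 count (edgeR adjusted p = 0.0138) also called E2f8, so that 4 of 15 alternatives did.

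Beside E2f8, 2 members separated the HKO cohort without overlap. E2f2 stood at 0.248, 0.208 and 0.127 CPM in AAV8-TBG-Null and 0.364, 0.256 and 0.331 CPM in HKO mice, which are counts of 2 to 6 reads and give no firm order. Tfdp1 stood at 32.8, 34.8 and 29.8 CPM in AAV8-TBG-Null and 24.4, 28.1 and 27.5 CPM in HKO mice, with a log2 fold change of −0.28 (SE 0.11) and an edgeR adjusted p of 0.345. Of all genes tested, 8.48% were higher and 9.47% lower in HKO mice without overlap. Set against these shares, 1 higher and 1 lower of the 9 members tested is no result about the family. The 95% intervals of the log2 fold changes of E2f3, E2f4, E2f5, E2f6 and Tfdp2 lay between −0.49 and 0.67. E2f1, an activator, had an interval from −1.27 to 0.36.

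The LKO cohort at 0 h asked the same question for lifelong deletion. Again no member was called, with 9 tested, and 0% of 12426 genes were called in all, while 352 had an unadjusted p under 0.05 and DESeq2 called 3. E2f8 had a log2 fold change of 0.63 (SE 0.22, 1.55-fold, n = 4 per group, edgeR adjusted p = 0.999). No member separated the 8 mice, against 1.13% of genes that were higher and 0.596% that were lower in LKO mice without overlap.

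Among activators at 0 h, E2f2 ran from 0.493 to 1.77 CPM in control and from 1.09 to 3.96 CPM in LKO mice, with a log2 fold change of 1.00 (SE 0.49, edgeR adjusted p = 0.999). Its 95% interval ran from −0.09 to 2.08. E2f1 ran from 2.46 to 3.83 CPM in control and from 3.16 to 5.07 CPM in LKO mice, and its interval was −0.21 to 0.83. For E2f3, E2f4, E2f5, E2f6, Tfdp1 and Tfdp2 the intervals lay between −0.69 and 0.50.

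The 2 knockout models were then set against each other. The E2f8 difference in LKO minus that in HKO was −0.86 on the log2 scale (SE 0.43, unadjusted p = 0.0629, edgeR adjusted p = 1.00), and no member and 0% of 12945 genes were called. The difference therefore did not hold up against the spread between mice, with a 95% interval from −1.78 to 0.05. The levels of activators in the controls of both cohorts were not tested against each other. E2f1 had 3.17 ± 0.636 CPM in the LKO cohort and 1.34 ± 0.256 CPM in the HKO cohort, and E2f2 had 1.18 ± 0.685 and 0.194 ± 0.0614 CPM. E2f3 lay the other way, at 7.94 ± 1.53 and 12.2 ± 2.18 CPM. Virus, breeding and cohort cannot be told apart in these levels.

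**Figure D2:**
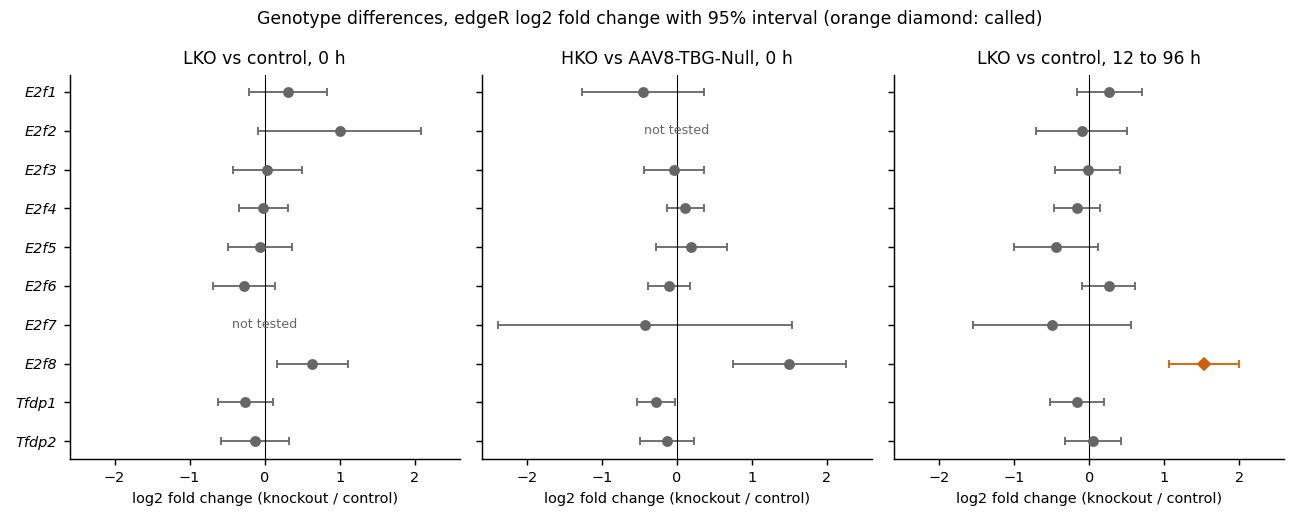
Log2 fold change of each member (knockout over control, x axis) with 95% intervals in 3 comparisons, edgeR, orange diamonds for called members. E2f8 is the 1 called member, at 1.53 over 12 to 96 h, and E2f2 in HKO and E2f7 in LKO at 0 h were not tested.

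After APAP, E2f8 was the member that separated the genotypes. Control pools stood at 13.7, 4.11, 4.88, 7.71 and 8.71 CPM and LKO pools at 47.1, 14.5, 21.4, 16.7 and 16.6 CPM at 12, 24, 48, 72 and 96 h. The LKO pool was thus higher at each time, by 1.90-fold at 96 h to 4.38-fold at 48 h. The log2 fold change over the 5 times was 1.53 (SE 0.21, 2.89-fold, 5 pools per genotype, edgeR adjusted p = 0.0237), and E2f8 was the 1 member called of 10, where 0.579% of 12782 genes were called. The call was lost without the pools of 12, 24 or 48 h (edgeR adjusted p = 0.0742, 0.0673 and 0.0795, log2 fold change 1.39 to 1.48) and without the time block (adjusted p = 0.764, log2 fold change 1.55).

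The E2f8 difference over 12 to 96 h exceeded that at 0 h by 0.91 on the log2 scale (SE 0.32, unadjusted p = 0.0109), which failed the correction (edgeR adjusted p = 0.444), and 0% of 13855 genes were called. In these pools the hepatocyte marker sum was lower in the LKO pool at 4 of 5 times. It was 62989, 79156, 95972, 99400 and 90965 CPM in LKO and 102610, 102382, 87908, 130867 and 107280 CPM in control pools at 12, 24, 48, 72 and 96 h. Among single mice at 0 h this sum already spread from 48098 to 92127 CPM in LKO and from 72668 to 120938 CPM in control. Its part in the E2f8 difference was not tested.

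The other 9 members were not called. The 95% intervals of E2f2, E2f3, E2f4, Tfdp1 and Tfdp2 lay between −0.71 and 0.50 on the log2 scale, and that of E2f7 ran from −1.55 to 0.56. The LKO pool had more E2f1 than the control pool at all 5 times, as 9.06% of genes were, with a log2 fold change of 0.27 (SE 0.19, edgeR adjusted p = 0.504). It had less E2f5 at all 5 times, as 8.03% of genes were, with a log2 fold change of −0.44 (SE 0.25, edgeR adjusted p = 0.379). Most of the E2f5 difference came from 12 h, where the control pool had 13.2 CPM and the LKO pool 4.29 CPM, and without the 12 h pools it was −0.15. At 12 h the control pool also had 170 CPM summed over cholangiocyte markers against 36.3 CPM in the LKO pool, whose part in this was not tested. E2f6 had 18.1, 12.9, 12.5, 16.3 and 16.0 CPM in control and 20.5, 18.1, 18.5, 15.4 and 19.0 CPM in LKO pools, higher in LKO at 4 of 5 times (log2 fold change 0.26, SE 0.16, edgeR adjusted p = 0.425).

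**Figure D3:**
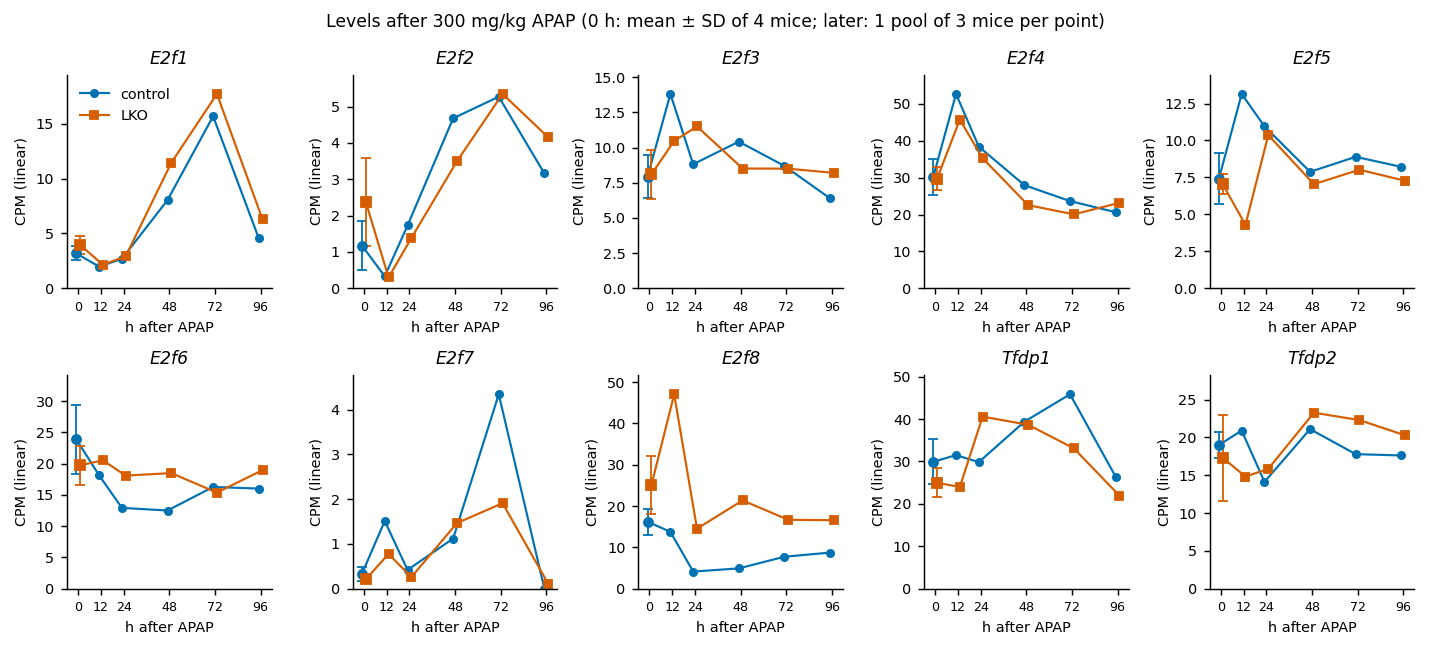
Levels of the 10 members in CPM on linear axes starting at 0, by hours after APAP, for control (blue circles) and LKO (orange squares), with the mean ± SD of 4 mice at 0 h and 1 pool of 3 mice at each later point. E2f8 is higher in LKO pools at all 5 times, while E2f1 and E2f2 peak at 72 h in both genotypes.

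The course after APAP was tested as the change from 0 h that both genotypes shared, in 1 fit of 18 libraries with 2 pools at each time. At 12 h, 3 of 10 members rose and 2 fell, while 16.7% of 13855 genes rose and 14.3% fell. At 24 h, 0 rose and 1 fell, against 13.9% and 11.7%. At 48 h, 2 rose and 0 fell, against 9.89% and 6.52%, and at 72 h 3 rose and 0 fell, against 11.0% and 5.77%. E2f7 is counted among those that rose at 12, 48 and 72 h, although it did not pass the filter among the mice at 0 h. Of the 9 members that did, 2, 0, 1, 2 and 0 rose at 12, 24, 48, 72 and 96 h. No member was called at 96 h, where 0.332% of genes rose and 0.130% fell. Because each time has 1 pool per genotype, the spread comes mainly from the mice at 0 h and from the disagreement of the genotypes. A fit within 1 genotype has 1 pool at each later time, so a call kept or lost there is a description only.

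The activators E2f1 and E2f2 fell first and rose later. E2f1 was at 1.97 CPM in control and 2.14 CPM in LKO pools at 12 h, 2.68 and 2.91 at 24 h, 8.03 and 11.4 at 48 h, 15.7 and 17.7 at 72 h and 4.56 and 6.29 at 96 h. At 12 h both pools lay below all 8 mice at 0 h, and at 48 and 72 h both lay above them. The log2 fold change was −0.77 (SE 0.25, edgeR adjusted p = 0.0235) at 12 h, 1.43 (SE 0.20, adjusted p = 0.000167) at 48 h and 2.22 (SE 0.20, adjusted p = 6.2e-07), or 4.66-fold, at 72 h. The call at 72 h held under all 18 alternatives tried, and the call at 48 h under all but LKO libraries alone (1.54, adjusted p = 0.0520). The fall at 12 h was not called with 1 of the stranded counts (log2 fold change −0.42, adjusted p = 0.2998) or within 1 genotype alone (adjusted p = 0.2582 in control and 0.1809 in LKO).

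E2f2 followed the same course at lower levels. It was at 0.329 and 0.298 CPM in control and LKO pools at 12 h, 1.73 and 1.38 at 24 h, 4.68 and 3.49 at 48 h, 5.27 and 5.35 at 72 h and 3.16 and 4.16 at 96 h. The fall at 12 h was 5.42-fold (log2 fold change −2.44, SE 0.67, edgeR adjusted p = 0.0105), from counts of 5 reads in each pool, and it was not called within 1 genotype alone (adjusted p = 0.203 in control and 0.0662 in LKO) or with 1 of the stranded counts (log2 fold change −1.51, adjusted p = 0.0805). Over the 17 alternatives this log2 fold change of E2f2 ran from −6.81 to −1.51, so its size is poorly determined. The rise at 72 h was 3.05-fold (log2 fold change 1.61, SE 0.44, adjusted p = 0.0178), and it was not called within control alone (2.15, adjusted p = 0.0593) or LKO alone (1.16, adjusted p = 0.386). At 48 h it missed the threshold (log2 fold change 1.26, SE 0.45, adjusted p = 0.0626), and it was called there by DESeq2 (adjusted p = 0.0455), with scaling by library size alone (1.49, edgeR adjusted p = 0.0340) and without LKO mouse 1 of 0 h (1.47, edgeR adjusted p = 0.0194).

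E2f3, the third activator, differed in timing. It stood at 13.8 CPM in the control and 10.5 CPM in the LKO pool at 12 h, both above the 5.80 to 10.1 CPM of the 8 mice at 0 h, and at 8.70 and 8.50 CPM at 72 h, within that range. Its log2 fold change was 0.61 at 12 h (SE 0.22, edgeR adjusted p = 0.0389), and leaving out control mouse 1, 2 or 4 or LKO mouse 2 at 0 h ended the call (adjusted p from 0.0551 to 0.0623, log2 fold change from 0.54 to 0.60). The call was also lost within control alone (0.81, adjusted p = 0.0855), within LKO alone (0.37, adjusted p = 0.481), with no filter beyond 1 count (adjusted p = 0.0666) and with 1 of the stranded counts (adjusted p = 0.0862), so that 10 of 18 alternatives called it. At the other times its log2 fold changes lay between −0.15 and 0.35 and none was called.

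Atypical E2f7 was called higher at 12, 48 and 72 h, and E2f8 at no time. E2f7 entered this fit only through the pools of 12, 48 and 72 h, where it had 13 to 66 reads, so its calls at those times describe the same pools that let it pass the filter. E2f7 was at 1.51 and 0.774 CPM in control and LKO pools at 12 h, 0.417 and 0.256 at 24 h, 1.12 and 1.47 at 48 h and 4.35 and 1.91 at 72 h. These are 66 reads in control and 40 in LKO pools at 72 h, against 2 to 7 reads in the 8 mice at 0 h. The log2 fold change was 2.07 at 12 h (SE 0.50, edgeR adjusted p = 0.00469), 2.32 at 48 h (SE 0.48, adjusted p = 0.00391) and 3.47 at 72 h (SE 0.45, adjusted p = 3.3e-05), or 11.1-fold. A fit within 1 genotype alone has 1 pool at each of these times, so it cannot test the rise of E2f7. In such fits the log2 fold change of E2f7 was positive at 12, 48 and 72 h, which is a description only. At 96 h the control pool had 0 reads, which allows up to 0.211 CPM, and the LKO pool had 2 reads.

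E2f8 fell at 24 h in the shared test. There the control pool had 4.11 CPM against 11.8 to 18.8 CPM in the control mice at 0 h, and the LKO pool had 14.5 CPM against 17.8 to 34.1 CPM. The log2 fold change at 24 h was −1.33 (SE 0.35, 2.51-fold lower, edgeR adjusted p = 0.00915), and within LKO libraries alone it was −0.78 and not called (adjusted p = 0.1971). At 48, 72 and 96 h it was −0.90, −0.86 and −0.78, none of which was called (adjusted p = 0.0702, 0.0826 and 0.273). At 48 h, where a fit within 1 genotype has 1 pool, E2f8 was at −1.74 in control libraries alone and at −0.22 in LKO libraries alone. DESeq2 called it lower at 48 h (adjusted p = 0.0312) and 72 h (adjusted p = 0.0494), as did the fit without LKO mouse 4 of 0 h (edgeR adjusted p = 0.0339 and 0.0404). At 12 h the genotypes parted, with the LKO pool at 47.1 CPM above all LKO mice at 0 h and the control pool at 13.7 CPM within the control range.

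Among the canonical repressors, E2f4 rose early and the others were not called in the fit reported. E2f4 stood at 52.7 and 45.8 CPM in control and LKO pools at 12 h, 38.4 and 35.3 at 24 h, 28.0 and 22.5 at 48 h, 23.6 and 20.1 at 72 h and 20.6 and 23.2 at 96 h. Both pools at 12 h lay above the 24.9 to 36.3 CPM of the 8 mice at 0 h. Its log2 fold change was 0.72 at 12 h (SE 0.15, 1.65-fold, edgeR adjusted p = 0.00181), not called within LKO alone (0.62, adjusted p = 0.102), and −0.47 at 72 h (SE 0.16, adjusted p = 0.0568). E2f5 had log2 fold changes from 0.03 to 0.57, and at 12 h its pools moved apart, to 13.2 CPM in control and 4.29 CPM in LKO. At 24 h E2f5 was called higher with scaling by library size alone (0.71, adjusted p = 0.0491) and with each stranded count (0.92 and 0.98, adjusted p = 0.0194 and 0.0103). E2f6 had log2 fold changes from −0.51 to −0.17.

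No change of a DP partner was called in the fit reported. Tfdp1 stood at 31.5, 29.8, 39.4, 45.9 and 26.4 CPM in control and at 24.0, 40.6, 38.7, 33.1 and 21.9 CPM in LKO pools at 12, 24, 48, 72 and 96 h. Its log2 fold change of 0.51 at 48 h (SE 0.19, edgeR adjusted p = 0.0732) and 0.50 at 72 h (SE 0.19, adjusted p = 0.0736) missed the threshold. With scaling by library size alone, Tfdp1 was called higher at 48 h (0.70, adjusted p = 0.0151) and 72 h (0.61, adjusted p = 0.0356), and with 1 of the stranded counts at 72 h (0.62, adjusted p = 0.0482). Tfdp2 ranged from 14.1 to 23.3 CPM over the 10 pools, with log2 fold changes from −0.27 to 0.28, and was not called at any time.

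**Figure D4:**
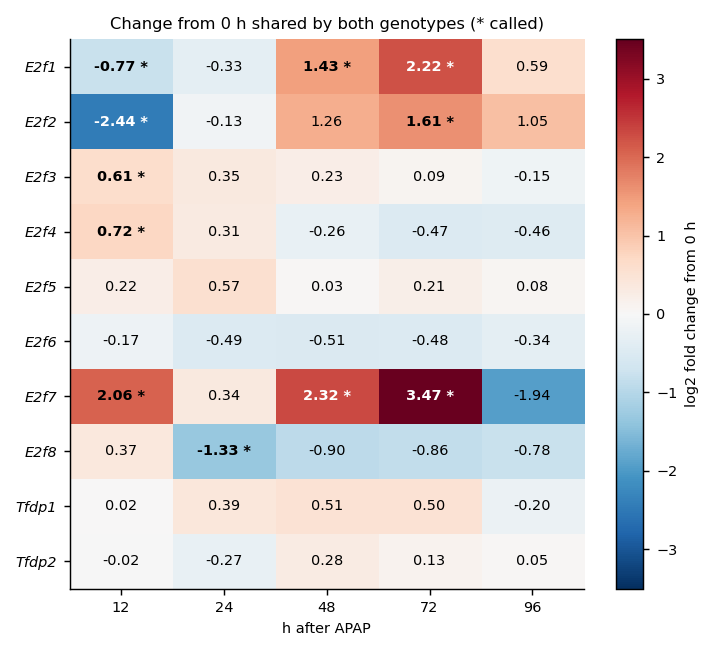
Log2 fold change from 0 h shared by control and LKO livers, by member and hours after APAP, edgeR, with an asterisk for called values. E2f7, at 3.47 at 72 h, passed the filter only through the pools of 12, 48 and 72 h, and E2f1 and E2f2 turn from negative at 12 h to positive at 48 and 72 h.

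The balance of the classes differed between times. Summed activators went from 2.71 ± 0.191 RPKM in control and 3.23 ± 0.678 RPKM in LKO mice at 0 h to 7.65 and 8.28 RPKM in control and LKO pools at 72 h. At that time they made up 28.3% of the E2F level in the control pool and 30.7% in the LKO pool. Summed canonical repressors were 32.1 and 24.7 RPKM in control and LKO pools at 12 h, against 20.7 ± 3.53 and 19.6 ± 1.16 RPKM at 0 h. Summed atypical E2Fs were 0.801 and 2.69 RPKM in control and LKO pools at 24 h, against 3.01 ± 0.571 and 4.63 ± 1.28 RPKM at 0 h, and the LKO pool was the higher at every time. These sums are descriptions with 1 pool per point, and in LKO the atypical sum cannot tell intact from deleted transcript.

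**Figure D5:**
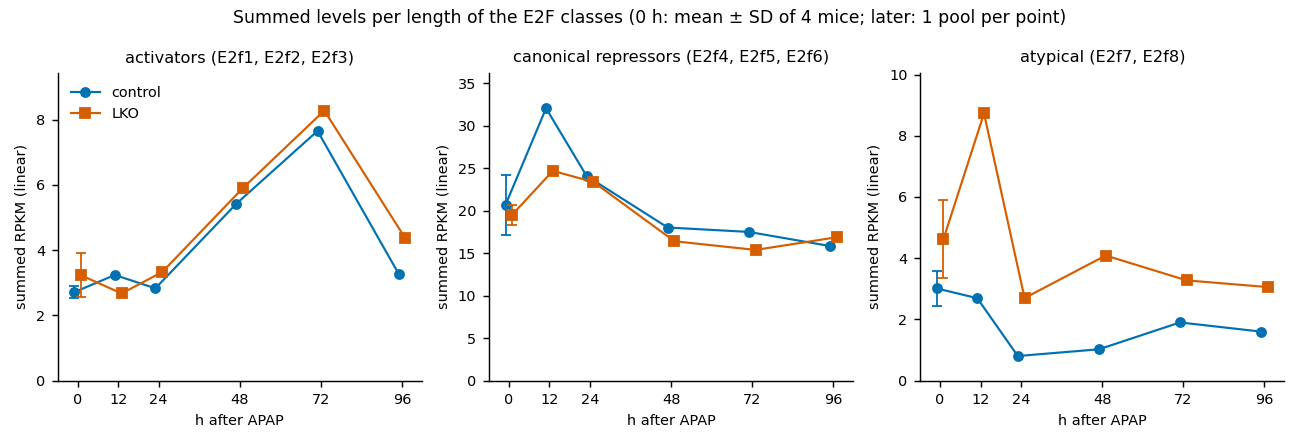
Summed RPKM of activator, canonical repressor and atypical E2Fs on linear axes starting at 0, by hours after APAP, for control (blue circles) and LKO (orange squares), with the mean ± SD of 4 mice at 0 h and 1 pool at each later point. Activators peak at 72 h, canonical repressors at 12 h, and the atypical sum, a count over the whole targeted genes, is higher in LKO at each time.

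Other genes of the pathway were taken from lists of targets, regulators and partners. Of 27 E2F target genes of S phase, 24 passed the filter among the mice at 0 h, and the other 3 passed only in the fit that includes the pools. Of the 24, 5 rose and 6 fell at 12 h, where 16.7% and 14.3% of all genes did. At 24 h 11 rose and 1 fell, against 13.9% and 11.7%. At 48 and at 72 h 21 rose and 0 fell, where 9.89% and 11.0% of all genes rose, and 0 were called at 96 h. The 24 had a median log2 fold change of 1.58 at 48 h, 2.31 at 72 h and 0.64 at 96 h. Over all genes tested it was 0.00, −0.03 and −0.02. Examples at 72 h were Uhrf1, which maintains DNA methylation (5.21, SE 0.43), and Mcm5, a helicase subunit (4.49, SE 0.37). Of 15 G2 and M phase genes, 10 passed the filter among the mice at 0 h, and their counts are to be read against the same shares. These 10 rose at 48 and at 72 h, among them Cdc20 (5.34, SE 0.48) and Top2a (5.33, SE 0.23) at 72 h, whereas 5 of them fell at 12 h, such as Birc5 (−3.53, SE 0.65), and 2 at 24 h. At 96 h 1 of them was still called higher, Top2a, a topoisomerase (1.58, SE 0.27), and the median log2 fold change of the 10 was 0.68.

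Regulators are given by the same counts, to be read against the shares of all genes that rose and fell at each time, as given above. Of 9 pocket protein and MuvB genes, which restrain or time E2F activity, 1, 0, 2, 3 and 0 rose and 2, 1, 0, 0 and 0 fell at 12, 24, 48, 72 and 96 h. Rbl1 (2.43, SE 0.33), Mybl2 (1.87, SE 0.37) and Lin9 (1.45, SE 0.30) rose at 72 h on the log2 scale, and Rbl2 fell at 24 h (−1.55, SE 0.26). Of 9 G1 and S cyclins and kinases, 0, 2, 2, 3 and 0 rose and 1, 2, 0, 0 and 0 fell at these times. Ccna2 (4.90, SE 0.37), Ccnd1 (1.80, SE 0.37) and Ccne1 (1.53, SE 0.38) rose at 72 h. Of 6 CDK inhibitors tested, 2, 1, 2, 2 and 0 rose and 2, 1, 0, 0 and 0 fell. Cdkn1a, a target of p53, rose at 12 h (4.87, SE 0.82), 24 h (4.10, SE 0.82) and 48 h (3.46, SE 0.86), Cdkn2b, which did not pass the filter among the mice at 0 h, was called at 12 h (3.37, SE 0.74), and Cdkn2c (1.82, SE 0.29) and Cdkn2d (1.68, SE 0.26) rose at 72 h. Of 8 partners of the E2F6 complex, 3 changes were called over the 5 times, where Rybp rose (2.07-fold, SE 0.26 on the log2 scale) and Cbx3 fell (−0.68, SE 0.21) at 12 h and Ring1 fell (−0.73, SE 0.22) at 48 h.

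By genotype, 0 of the 24 S phase targets tested in LKO at 0 h and 0 of 27 over 12 to 96 h were called, and the same held for the other 5 lists in both LKO comparisons. In the HKO cohort 1 of 23 was called, Tk1, a thymidine kinase, with a log2 fold change of −1.12 (SE 0.15, edgeR adjusted p = 0.00927). The median log2 fold change of the S phase targets was 0.00 in HKO, where 12 of 23 were higher, and 0.24 in LKO at 0 h, where 19 of 24 were higher, against 0.01 and 0.00 over all genes tested.

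Markers of other cell types moved with time beside these changes. The 7 leukocyte and macrophage markers summed to 103 to 251 CPM in the 8 mice at 0 h of the LKO cohort and to 531 and 520 CPM in control and LKO pools at 72 h. The 6 stellate cell markers, among them Col1a1 and Acta2, summed to 62.2 to 139 CPM at 0 h and to 754 and 459 CPM at 72 h. The 5 cholangiocyte markers summed to 37.5 to 75.7 CPM at 0 h, to 217 and 86.8 CPM in control and LKO pools at 48 h and to 68.7 and 44.1 CPM at 72 h. The 6 endothelial markers summed to 153 to 235 CPM over the 10 pools, against 192 to 254 CPM at 0 h. Neutrophil markers were at most 26.2 CPM in sum and lymphocyte markers at most 7.16 CPM in pools. The part of these cells in the rise of E2f1, E2f2 and E2f7 was not tested.

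Likeness to each member was measured across 18 libraries, those of the LKO cohort, by Pearson's r of log2 CPM, given as a description without a p-value because the libraries share time points. E2f1 was most like Clspn (r = 0.966), Bub1 (0.966) and Mki67 (0.964), and E2f7 most like Tnfrsf11a (0.876), Mybl2 (0.871) and Arhgap11a (0.869). E2f2 was most like Snrnp25 (0.881), Fanca (0.880) and Aif1 (0.868), of which Aif1 is a macrophage gene. E2f8 was most like Atrn (0.873), Adgrl2 (0.872) and Acsm3 (0.869), none of which belongs to the cell cycle lists. E2f6 was most like Vps37a (0.895), E2f5 like Esf1 (0.892), Tfdp1 like Ssr1 (0.860), E2f3 like Tgfbr1 (0.839) and Tfdp2 like Efcab14 (0.831). Within the family, E2f1 and E2f2 were most alike (r = 0.822), and E2f1 and E2f7 had r = 0.504.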

How the data were processed

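Whole-liver polyA RNA-seq libraries, 24 in all, were analyzed. Per the paper's methods and the labels, Trimmomatic was used for trimming and STAR for alignment to mm10, and the authors deposited unnormalized read counts per gene. The annotation version is not given in the sources used here. Of the deposited columns the unstranded counts were taken, and the rows that name no gene (18.7% to 39.93% of reads) were left out. For the HKO cohort 3 mice per group were held, where the labels state 4.

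In R 4.3.3, edgeR 4.0.16 filtered genes with filterByExpr (by genotype, and by the design in the fits of 18 libraries), scaled counts by TMM and tested them with the quasi-likelihood F-test (2-sided, Benjamini-Hochberg adjustment over all genes of a comparison). A call needed an adjusted p-value under 0.05 and a change of at least 1.5-fold, and SE was taken as the log2 fold change divided by the root of F. Fits compared HKO with AAV8-TBG-Null mice and LKO with control mice at 0 h, LKO with control pools over 12 to 96 h with time as a block, each time with 0 h with genotype as covariate, and 2 differences of effects. Printed CPM share 1 TMM scaling over 24 libraries, and RPKM use exon lengths of GENCODE vM21, which matched 95.76% of symbols. Marker and pathway lists held 134 genes, of which 1, Ly6g, had no counts here. Scripts were tested on simulated data.

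All 10 members were tested wherever they passed the filter. The rule for lists took up to 4 called genes with the largest change per comparison, of which examples are given. After the data were seen, counts after APAP were also taken over the genes that passed the filter among control and LKO mice at 0 h. For likeness, the 3 genes with the highest r were found, of which up to 3 are given, and those of E2f4 are not reported here. The members and lists were chosen with earlier results of these data known. Alternatives were DESeq2 1.42.0, RLE or library size scaling, other filters, stranded counts, no fold limit, a replicate block, no time block, 1 genotype alone, a prior count of 0.5 in place of 2, and leaving out each mouse or time. Depth set a floor of 3 counts per library. Replicate numbers gave no evidence of a pairing of the mice, and the few mice per group cannot exclude one.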

Additional observations from a re-analysis of the deposited data

Results flagged for a closer look

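1 of the 20 groups of 4 mice examined, 10 members in control and LKO mice at 0 h, held a value far from the rest, and chance alone marks about 1 in 20. E2f5 stood at 10.0 CPM in control mouse 3 and at 6.47 to 6.59 CPM in the other 3 control mice, so that the gap made up 0.966 of the whole range. The same mouse had the fewest reads on genes, 12665686, and the most reads on no gene, 39.93%.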

How the results depend on the processing

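Across the alternatives no member changed sign while called, and of 180 recounts of the members called, 159 stayed within 1.5 times. For HKO, DESeq2, no filter beyond 1 count and the replicate block each called 1 member in place of 0 (E2f8 with the block at an edgeR adjusted p of 0.00181), and leaving out a mouse gave 0 to 1. Over 12 to 96 h, no time block gave 0 in place of 1, and leaving out a time gave 0 to 1. At 12 h, in place of 5, at least 10 counts in every library gave 3, stranded column 4 gave 2, control libraries alone 1 and LKO libraries alone 0. At 24 h, in place of 1, library size scaling and both stranded columns gave 2 (E2f5 added) and LKO libraries alone 0. At 48 h, in place of 2, DESeq2 and library size scaling gave 4, at least 10 counts gave 1 and LKO libraries alone 0. At 72 h, in place of 3, at least 10 counts gave 1. The filter of 10 counts removes E2f2 and E2f7 by construction, and the fits of 1 genotype have fewer libraries, while the cause of the other shifts was not tested. The block did not change the number of members called in LKO at 0 h (0) or in the comparison of the models (0). Same-numbered mice correlated from -0.379 to 0.223 in LKO and from -0.031 to 0.198 in HKO, with 0 and 1 pairs best with their own number. These values give no evidence that the numbers pair the mice, and so few mice per group cannot exclude it.

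Counts of all genes called ranged over the alternatives from 54 to 327 in HKO (119 in the fit reported), from 0 to 606 over 12 to 96 h (74), from 10 to 331 at 96 h (64), and from 280 to 2697 at 48 h (2274). They ranged from 0 to 3 in LKO at 0 h (0), from 1414 to 4816 at 12 h (4299), from 1062 to 3964 at 24 h (3549), from 375 to 2565 at 72 h (2327), from 0 to 39 for the effect after APAP minus 0 h (0), and from 0 to 21 between the models (0). With a prior count of 0.5 in place of 2, 95 of 100 changes from 0 h of single members moved by less than 1 SD. Of 80 levels per length under the longest transcript or library size alone, 23 moved by more than 1 SD and 57 did not. Depth limits E2f2 and E2f7, whose counts at 0 h were as low as 2 reads. With 1 pool per genotype and time, a genotype difference at a single time has no replicates of its own and was not tested.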
